A study of Glycine max with 24 samples.

Results

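The transcripts that differed between 12 h and 72 h of aluminium (Al) together with magnesium (Mg) were measured in root tips of the soybean (Glycine max) plant introduction PI 416937, here called PI. The comparison used the 3 arrays of PI taken after 72 h and the 3 taken after 12 h, 6 of the 24 arrays of the study, and all 37593 probe sets for soybean (those whose identifiers begin with Gma). The study crossed 2 genotypes, PI and the cultivar Young, with Al alone or Al plus Mg and with both times, 3 arrays to each of the 8 groups. All groups received 10 µM Al, so no plants without Al were compared, and the labels give no Mg dose and no 0 h sample. Plants stood in hydroponic culture in a chamber lit for 16 h a day at 28 °C and dark for 8 h at 20 °C, and RNA came from the last 1 cm of the root. Against the change in PI with Al plus Mg stood the same change in PI with Al alone and in Young with Al plus Mg, which used other arrays. Titles of the arrays with Al alone end in an unexplained letter c, and their description as Al only was followed. The labels call PI sensitive to Al and Young tolerant, whereas published work is known to describe them the other way round, so the genotypes are named and not ranked. Whether replicate arrays came from separate plants or pools is not stated, so p-values measure the spread between arrays only.

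Al ions stop root elongation, and the root tip is the part of the plant they act on first. Mg in the medium is known to ease this toxicity, in soybean together with a greater release of citrate from the root. Soybean roots under attack or stress make pathogenesis-related proteins and glyceollins, pterocarpan phytoalexins built from isoflavones by cytochrome P450 enzymes and prenyltransferases, and WRKY and NAC transcription factors are known regulators of such responses.

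Values are log2 of the deposited intensity, a higher value meaning more transcript, and a difference of 1 is a factor of 2. The arrays of a time were alike, with correlations over probe sets of 0.989 to 0.99 at 12 h and 0.984 to 0.991 at 72 h, and lay farther apart between times, at 0.93 to 0.949. Of the soybean probe sets, 77.8% to 79.4% stood above the background bound of their array, which was set from 23350 probe sets for the oomycete Phytophthora sojae and the nematode Heterodera glycines and lay between 2.723 and 3.103 over the study. In a bulk sample, fewer cells of a type and less RNA per cell cannot be told apart. The times are 60 h apart, which leaves 12 h after whole days of 24 h. The labels give no clock time of start or harvest, so the arrays of both times may come from different points of the daily light and temperature cycle, and the roots grew on for 60 h if both treatments began together. Length of treatment, time of day and root age cannot be told apart in any result below. The ratio of 3′ to 5′ probes of the P450 control transcript was 2.82 ± 0.34 at 12 h and 4.12 ± 0.25 at 72 h on the log2 scale (SD, n = 3), while its ratio of 3′ to middle probes was 1.91 ± 0.14 and 1.73 ± 0.23, and the part of RNA quality in the results was not tested. The spike-in controls bioB, bioC and bioD were higher on every 72 h array than on every 12 h array. Their means were 9.89, 11.56 and 14.05 at 72 h and 9.36, 11.09 and 13.63 at 12 h. For bioB, replicate 2 at 72 h was 10.44 against 9.31 to 9.71 on the other arrays of the comparison. The spike-in control cre overlapped between times (means of 15.58 at 72 h and 15.51 at 12 h). The part of the spike-in shift in the results was not tested.

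A probe set passed where its adjusted p was under 0.05. Of the 37593 tested, 16584 (44.1%) passed, 8154 of them higher at 72 h (21.7%) and 8430 lower (22.4%). A difference of at least 2-fold was held by 2667 higher (7.09%) and 3154 lower probe sets (8.39%), and one of at least 8-fold by 260 higher and 372 lower. The median difference over all tested was 0.01, and the central 95% lay between −1.99 and 1.77. The arrays of both times did not overlap for 23025 probe sets (61.2%). Small differences need care, because 6636 probe sets were at background on all 6 arrays and 750 of these passed as higher but only 8 as lower. Without them 7404 were higher and 8422 lower. In a fit that held the pathogen probe sets too, 6723 of those 23350 passed as higher and 52 as lower, with a median difference of 0.011, and 5 and 7 of them reached 2-fold. Of 1125 soybean genes with a name, 256 were higher (95 by at least 2-fold) and 266 lower (152 by at least 2-fold), with a median of 0.02. Counts for gene lists below are to be read against the 21.7% higher and 22.4% lower over all soybean probe sets, and no test compared one list with another.

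PR-10 and PR1-1, both defence genes, had the largest falls among the named genes, which hold 30 of the 372 falls of at least 8-fold. PR-10, a pathogenesis-related protein, read 13.14, 12.11 and 13.23 on the 3 arrays at 12 h and 2.41, 2.41 and 2.76 at 72 h. Its 12 h arrays lay far above background and its 72 h arrays were all at background, which makes it at least 888-fold lower (adjusted p = 2.51e-10). PR1-1, of the PR-1 family used as a marker of salicylate-dependent defence, stood at 9.91, 9.79 and 12.99 and then at 2.82, 2.33 and 2.52. Its 12 h arrays were spread, replicate 3 being the highest, yet all lay far above the 72 h arrays, at least 233-fold apart (adjusted p = 1.48e-06), and the fitted fall of 8.34 was 7.29 without that replicate. A second probe set of PR1-1 differed by −1.64 and did not pass (adjusted p = 0.057). The chitinase gene chib1-a, whose product cuts fungal cell walls, went from 9.80, 9.69 and 9.46 to 2.18, 2.77 and 3.23, at least 92.1-fold lower (adjusted p = 7.82e-09). Of 24 named genes for defence proteins and their signalling, 10 fell, 2 rose and 12 did not pass, with a median of −0.14 against 0.01 over all probe sets. The other falling members included EDS1-2, a regulator of resistance, by 1.81 ± 0.19 (SE) and NDR1b, named after a membrane protein of resistance signalling in Arabidopsis, by 3.10 ± 0.49. PGIP4, an inhibitor of fungal polygalacturonase, went the other way, from background on all 12 h arrays to 5.27, 5.0 and 4.38.

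**Figure D1:**
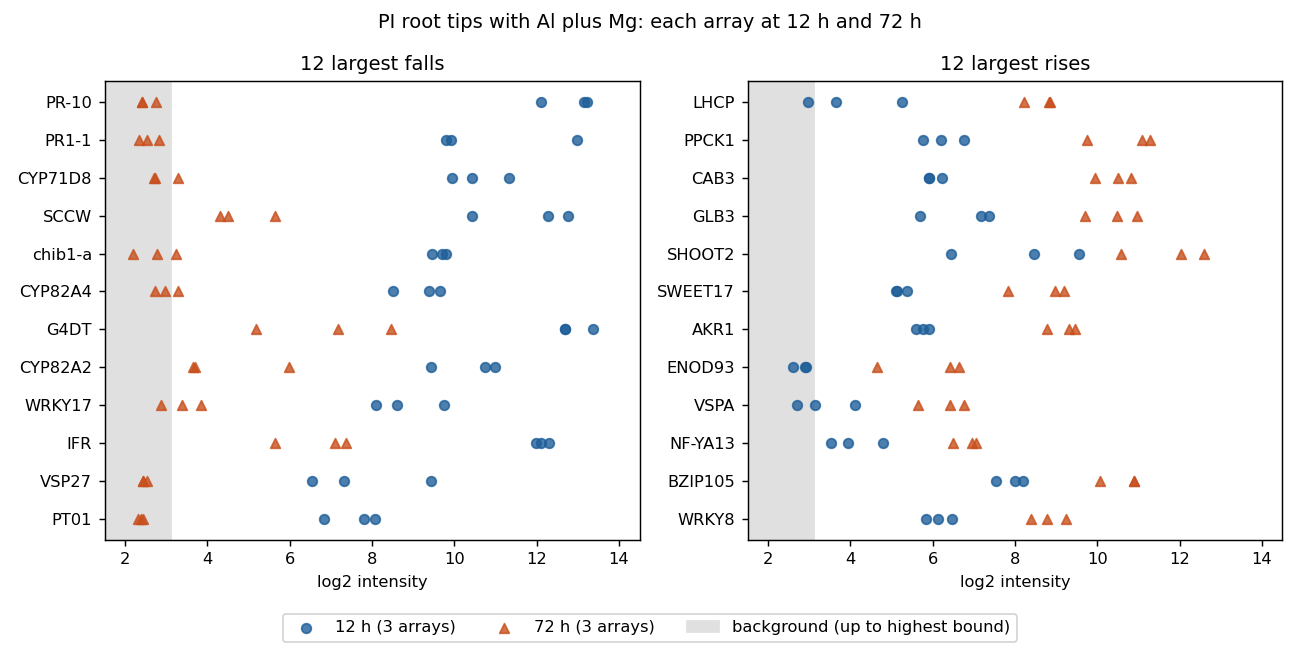
Log2 intensity of the 12 named genes with the largest falls and the 12 with the largest rises, each point 1 array of PI with Al plus Mg (circles 12 h, triangles 72 h, 3 arrays each) and the grey band background. The 12 h arrays of PR-10 lie between 12.11 and 13.23 and its 72 h arrays within the band.

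The late enzymes of the glyceollin route given here, IFR, CYP93A1, G4DT and PT01, fell, and those of the early steps of phenylpropanoid synthesis were mixed. Some other named isoflavonoid genes did not fall: CYP81E11 rose by 1.73 and IFR2 by 0.47, and IFR1 (−0.98) and HIDH did not pass. Among early enzymes, PAL2.1 (phenylalanine ammonia-lyase) differed by 0.14 ± 0.17 (adjusted p = 0.529) and C4H (cinnamate 4-hydroxylase) by 0.08 ± 0.11 (adjusted p = 0.603), neither of which passed. Of the 5 named 4-coumarate CoA ligases, 4CL1, 4CL3 and 4CL4 fell by 1.48 ± 0.27, 1.12 ± 0.32 and 1.09 ± 0.20, and 4CL and 4CL2 did not pass. CHS1, a chalcone synthase, fell by 3.30 ± 0.70, and the isoflavone synthase IFS2 fell by 1.20 ± 0.23, while the second isoflavone synthase IFS1 rose by 0.45 ± 0.11. IFR, an isoflavone reductase, read 11.99, 12.10 and 12.30 at 12 h and 7.09, 5.64 and 7.36 at 72 h, a fall of 5.44 ± 0.41 or 43.3-fold (adjusted p = 5.8e-08). CYP93A1, the dihydroxypterocarpan 6a-hydroxylase, went from 10.49, 9.43 and 10.26 to 4.98, 5.48 and 4.94, a fall of 4.92 ± 0.43 (adjusted p = 2.36e-07). The groups of both genes lay far apart. G4DT, a prenyltransferase that acts on the pterocarpan glycinol, stood at 12.69, 12.69 and 13.38 and then at 7.17, 5.17 and 8.46. The 72 h arrays of G4DT were uneven, with replicate 2 lowest, but none came near the 12 h arrays (63.4-fold lower, adjusted p = 3.92e-06). The fall of 5.99 was 5.10 without replicate 2 and 6.75 without replicate 3 at 72 h. PT01, the prenyltransferase that adds the same group at another position of glycinol, read 7.80, 6.84 and 8.08 at 12 h and was at background on all 72 h arrays, at least 23.3-fold lower (adjusted p = 3.23e-07). Of 44 named enzymes of phenylpropanoid and isoflavonoid synthesis, 17 fell and 4 rose, 12 of the falls reaching 2-fold, and 9 members were at background at both times. The list's median was −0.06, so most members did not share the size of these falls.

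Several cytochrome P450 genes of other or unassigned pathways fell too. CYP71D8 read 10.42, 9.95 and 11.33 at 12 h and 2.72, 2.70 and 3.29 at 72 h. Only replicate 3 of the late arrays lay above background, and the gene was at least 172-fold lower (adjusted p = 5.18e-09). CYP82A4 went from 9.39, 8.50 and 9.65 to 2.96, 2.72 and 3.28, at least 65.9-fold lower (adjusted p = 3.6e-07). CYP82A2 went from 10.74, 9.44 and 10.98 to 3.65, 3.70 and 5.99, 61.5-fold lower (adjusted p = 3.16e-06, a fall of 5.94 that was 6.72 without replicate 3 at 72 h). Among 28 named P450 genes, 7 fell and 4 rose, a share of falls near the 22.4% over all probe sets, and 6 of the 7 fell by more than 2-fold. The risers included CYP81E11, which rose by 1.73 and is also a member of the phenylpropanoid and isoflavonoid list above. SCCW, a gene to which no role is given here, fell by 6.99 ± 0.71, from 12.27, 10.43 and 12.76 to 4.31, 5.65 and 4.51 (adjusted p = 1.03e-06), and by 7.69 without replicate 2 at 12 h.

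Transcription factor genes went both ways. Of 53 WRKY genes, 15 fell and 8 rose, and 10 of the 15 falls but 2 of the 8 rises reached 2-fold. WRKY17 read 8.10, 8.60 and 9.74 at 12 h and 3.39, 2.86 and 3.84 at 72 h, at least 41.3-fold lower (adjusted p = 3.29e-06). WRKY53 was at least 16.0-fold lower (adjusted p = 5.11e-06), and WRKY30 fell by 3.65 ± 1.11 from a wide range at 12 h, 5.49 to 8.23, to between 3.03 and 3.18 (adjusted p = 0.0129). The fall of WRKY30 was 2.90 without replicate 3 at 12 h and 4.27 without replicate 1, and did not pass without replicate 3 (adjusted p = 0.0675) or with the offset of 32 (0.0572). Another probe set of WRKY30 differed by −2.52 and did not pass (adjusted p = 0.0797). WRKY8 rose from 5.83, 6.13 and 6.46 to 9.24, 8.40 and 8.77, 6.33-fold (adjusted p = 0.000174). Without replicate 3 at 12 h the falling WRKY genes numbered 9. Of 20 NAC genes 6 fell and 1 rose, all 6 by at least 2-fold, among them NAC6 (by 2.5 ± 0.45) and NAC55 (by 2.37 ± 0.48), and 3 of them passed without replicate 3 at 12 h or without replicate 2 at 72 h. Of 68 MYB genes 23 rose and 11 fell, MYB186 by 2.29 ± 0.22. Of 67 bZIP genes 22 rose and 12 fell, a count of risers that was 14 without replicate 1 at 72 h. BZIP105 rose from 7.55, 7.99 and 8.20 to 10.90, 10.06 and 10.90, 6.52-fold (adjusted p = 0.00033), and BZIP50 rose by 2.24 ± 0.22. In the AP2, ERF and DREB group of 15 genes, 5 rose and 4 fell, with RAV rising by 1.73 ± 0.63 and DREB2 by 1.69 ± 0.46. Another probe set of DREB2 differed by 0.14 and did not pass (adjusted p = 0.777). The rise of RAV was 2.41 without replicate 2 at 72 h, and RAV did not pass without replicate 1 or 2 at 12 h or without replicate 1 or 3 at 72 h (adjusted p up to 0.156).

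Several genes that respond to oxidative and protein stress fell. Of 37 glutathione transferases, which join glutathione to toxic compounds, 13 fell and 6 rose, where 22.4% and 21.7% of all probe sets did. GSTU27 went from 7.64, 7.91 and 8.35 to 3.51, 2.92 and 4.11, at least 21.0-fold lower (adjusted p = 4.88e-07), and GSTU18 fell by 2.96 ± 0.43. The alternative oxidases, which give mitochondria a bypass of the cytochrome chain, had 3 named members, and each fell. AOX1 read 8.73, 8.55 and 9.10 at 12 h and 5.99, 3.79 and 5.45 at 72 h, 13.2-fold lower (adjusted p = 0.000266, a fall of 3.72 that was 3.07 without replicate 2 at 72 h), and AOX2 and AOX3 fell by 1.4 ± 0.20 and 1.24 ± 0.22. Over 19 redox enzymes 6 fell and 3 rose, and the superoxide dismutases and catalases did not pass. HSP90A1, a chaperone, fell from 10.40, 11.34 and 11.14 to 8.17, 8.33 and 8.15, 6.71-fold (adjusted p = 5.08e-06). Its late arrays were tight and lay far below the early ones. In the 17 heat shock genes 5 fell and 2 rose, and 3 fell when replicate 2 at 12 h was left out. SFERH-2, a ferritin that stores iron, went from 9.70, 9.37 and 10.54 to 6.01, 6.66 and 7.15, 9.60-fold lower (adjusted p = 0.000176). SCA1, a calcium-transporting ATPase, fell by 2.45 ± 0.50, the sodium/proton exchanger NHX1 by 1.16 ± 0.09 and the calmodulin SCAM-4 by 2.01 ± 0.28. In the ion and metal list 4 of 12 fell and 1 rose, and in the calcium list 2 of 10 fell and 3 rose.

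Jasmonate genes had the lowest list median of all 37 lists, −0.86. Of 22 named lipoxygenases and genes of jasmonate synthesis, signalling and storage protein output, 13 fell and 3 rose. VSP27, a vegetative storage protein gene, read 9.44, 7.33 and 6.54 at 12 h, a wide spread, and was at background on every 72 h array, at least 26.7-fold lower (adjusted p = 0.00439). The fitted fall of 5.31 was 4.47 without replicate 1 and 5.92 without replicate 3 at 12 h. Other probe sets of VSP27, of low signal, differed by −1.17 and −1.06 and did not pass (adjusted p = 0.187 and 0.339). JAZ1, a repressor of jasmonate responses that jasmonate itself induces, went from 11.29, 11.36 and 11.53 to 9.11, 8.79 and 9.17, 5.18-fold lower (adjusted p = 1.33e-05). The allene oxide cyclase AOC4 fell by 1.81 ± 0.27 and the lipoxygenases LOX9 and LOX7 by 2.11 ± 0.42 and 1.82 ± 0.35. CYP74A1, a P450 gene of this list, rose by 1.53. VSPA, a related storage protein gene, rose too, from 3.15, 4.10 and 2.70 to 5.65, 6.76 and 6.42, at least 7.51-fold (adjusted p = 0.00715). Of 8 probe sets assigned to VSPA, the other 7 differed by −0.23 to 0.80 and 5 of them did not pass. Of the 4 ethylene genes, the synthase ACS1 fell by 0.89 ± 0.27 and the receptor EIN4 by 0.35 ± 0.10, while the receptor ETR2 rose by 0.75 ± 0.29. ACS1 did not pass without replicate 1 of either time (adjusted p up to 0.0776), nor ETR2 without any 1 array but replicate 2 at 72 h (up to 0.182).

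Transcripts of chlorophyll-binding proteins, which are marks of green tissue, rose, LHCP by the most among the named genes, which hold 8 of the 260 rises of at least 8-fold. LHCP read 3.65, 5.25 and 2.98 at 12 h and 8.82, 8.22 and 8.85 at 72 h, 25.4-fold higher (adjusted p = 4.78e-05, a rise of 4.67 that was 5.31 without replicate 2 at 12 h). CAB3 read 5.92, 5.92 and 6.23 and then 10.81, 9.95 and 10.51, 21.1-fold higher (adjusted p = 1.1e-07). In both genes, every late array lay above every early one. These are the 2 shoot and leaf markers with a named probe set, and their summed linear intensity was 73.1 to 98.7 per array at 12 h and 1290 to 2250 at 72 h; their part in other results was not tested. Of 5 probe sets assigned to CAB3, 3 rose, 1 at background did not pass and 1 fell by 0.76. In a list of 11 genes for light harvesting, photosynthetic electron transport and Rubisco activase, 5 rose and 2 fell. Of these, 4 rises and 1 fall reached 2-fold, and the larger fall was 1.12. The risers included RCABETA, a Rubisco activase, which rose by 1.94 ± 0.45, and PETC, the Rieske protein, which rose by 1.56 ± 0.13.

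Clock and light receptor genes changed in both directions. LHY, a morning-phased transcription factor of the clock, read 8.23, 8.48 and 8.34 at 12 h and 7.17, 6.22 and 6.85 at 72 h, a fall of 1.61 ± 0.26 (adjusted p = 0.000104). LUXC, named after an evening-phased component of the clock in Arabidopsis, read 10.60, 10.82 and 10.57 and then 12.46, 12.81 and 12.24, a rise of 1.84 ± 0.14 (adjusted p = 7.15e-08). Both were thus separate between times. Another probe set of LUXC, of lower signal, differed by 0.51 and did not pass (adjusted p = 0.147), while another of LHY fell by 2.36. Neither ZTL1, a blue-light receptor that marks clock proteins for breakdown (−0.10 ± 0.09, adjusted p = 0.371), nor LCL3, which was at background at both times (adjusted p = 0.738), passed. Of 13 photoperiod and photoreceptor genes 3 rose and 2 fell. The cryptochrome gene CRY2B fell from 7.76, 7.39 and 7.99 to 5.12, 4.86 and 4.54, 7.32-fold (adjusted p = 1.48e-05), whereas CRY2c rose from 6.27, 6.12 and 6.82 to 8.51, 7.69 and 8.66, 3.69-fold (adjusted p = 0.00158). The red and far-red light receptor PHYA rose by 1.23 ± 0.16.

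Some genes of carbon and phosphate use were higher at 72 h, although most members of the organic acid and sugar lists did not pass. PPCK1, the kinase that activates phosphoenolpyruvate carboxylase, read 6.76, 5.76 and 6.19 at 12 h and 11.27, 9.76 and 11.09 at 72 h, 22.2-fold higher (adjusted p = 4.42e-07). PPCK2 rose by 0.74 ± 0.16, and the carboxylase PEPC17 fell by 0.60 ± 0.15. The other 11 of 14 organic acid genes did not pass. SWEET17, of the SWEET family of sugar transporters, went from 5.13, 5.38 and 5.11 to 8.97, 9.20 and 7.84, 11.1-fold higher (adjusted p = 0.00108), and SWEET42 rose by 1.54 ± 0.13. Over 19 genes of sugar transport and starch 7 rose, and CIF1, an invertase inhibitor, was the 1 that fell, by 2.53 ± 0.49. PHT1-3, a phosphate transporter, rose from 12.65, 12.53 and 12.79 to 14.60, 14.14 and 14.68, 3.53-fold (adjusted p = 6.31e-05). In the phosphate list 8 of 19 rose and 2 fell, and 1 of the 2 was PT01, which the list took in by its symbol although it is the glyceollin prenyltransferase described above.

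Nitrogen genes went both ways. GS-2, the plastid form of glutamine synthetase, rose from 7.86, 8.08 and 7.01 to 9.23, 10.07 and 9.65, 4.01-fold (adjusted p = 0.000195). NRT2, a nitrate transporter, fell from 5.56, 4.99 and 5.52 to 3.10, 3.14 and 3.55, 4.27-fold (adjusted p = 0.0199), and the asparagine synthetase AS2 fell from 11.00, 10.86 and 11.77 to 9.18, 9.87 and 9.16, 3.50-fold (adjusted p = 0.00552). The groups of each gene did not overlap, but the call for NRT2 was lost without replicate 1 or 3 at 12 h or replicate 1 at 72 h (adjusted p up to 0.0577) and with an offset of 32 added before log2, where the fall was 0.81 (adjusted p = 0.20). Of 23 nitrogen genes 7 rose and 4 fell. In the sulphur list 2 of 10 rose and 3 fell, CGS2 (cystathionine gamma-synthase) by 1.05 ± 0.11. GLB3, AKR1 and SHOOT2, genes for which no role is given here, rose 12.4-fold, 10.8-fold and 11.9-fold. The 12 h arrays of SHOOT2 were spread from 6.45 to 9.55, and its adjusted p of 0.00926 became 0.0591 without replicate 1 at 12 h, when the rise of 3.58 was 2.73, and the rise was 4.28 without replicate 3. NF-YA13, a subunit of the NF-Y transcription factor, rose from 4.78, 3.95 and 3.53 to 6.95, 7.06 and 6.5, 6.74-fold (adjusted p = 1.13e-06).

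Hormone and growth genes made the next group. Of 22 gibberellin and GASA genes (GASA genes code for small peptides that gibberellin induces), 12 rose and 3 fell, with a median of 0.67, the highest of the 37 lists. GASA22 went from 11.84, 10.25 and 12.36 to 13.96, 13.99 and 14.01, 5.67-fold higher (adjusted p = 0.00104, a rise of 2.5 that was 1.89 without replicate 2 at 12 h), and GASA6 from 8.58, 8.27 and 8.49 to 10.79, 10.72 and 10.76, 4.98-fold higher (adjusted p = 1.2e-05). The late arrays of both peptide genes were nearly identical. GA2OX6, a gibberellin 2-oxidase that inactivates the hormone, rose from 8.15, 8.45 and 8.05 to 10.93, 10.16 and 10.27, 4.72-fold (adjusted p = 0.00102). Of 9 auxin genes 6 rose and 1 fell, all by less than 2-fold, with the Aux/IAA gene AUX28 up by 0.71 ± 0.17, the receptor TIR1C up by 0.52 ± 0.09 and the influx carrier LAX11 at −0.75 ± 0.27. Without replicate 1 at 12 h or without replicate 1 at 72 h 3 of them rose, and LAX11 lost its call without any 1 of 5 arrays, all but replicate 2 at 12 h (adjusted p up to 0.135). ERD15, an early dehydration gene, rose 5.05-fold (adjusted p = 9.39e-05), and over 10 genes of abscisic acid and dehydration 4 rose and 2 fell, the cold-inducible zinc finger gene SCOF-1 by 1.71 ± 0.35 and the galactinol synthase GOLS at least 3.46-fold.

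Cell wall genes changed in both directions. PRP2, a proline-rich wall protein, read 15.47, 15.42 and 15.76 at 12 h and 13.65, 12.47 and 13.09 at 72 h, 5.59-fold lower (adjusted p = 9.58e-07). The glycine-rich protein gene GRP fell by 1.92 ± 0.16 and the expansin EXP4 by 1.87 ± 0.58. Other probe sets of GRP differed by −0.43, −0.53 and 0.08. In the list of 16 wall genes 6 fell, 5 of them by at least 2-fold, and 3 rose, none by 2-fold. Among 5 cell division genes PCNA, the clamp of DNA replication, fell by 0.69 ± 0.24 and CCS52, an activator of the anaphase-promoting complex, rose by 1.11 ± 0.28. In all 3 fell, and 1 did without replicate 1 of either time, when PCNA did not pass. Other probe sets of PCNA fell by 1.12, 1.86 and 1.58 (adjusted p = 0.00526, 0.000376 and 0.00202), and their calls without 1 array are not given here. The beta-tubulins went both ways, as TUBB2 fell by 0.85 ± 0.13 and TUBB3 rose by 0.80 ± 0.12. Of 21 aquaporins 8 rose and 4 fell, the tonoplast gene TIP2;3 rising by 1.3 ± 0.19 and TIP1;6 going from 8.28, 7.64 and 6.45 to 6.23, 4.33 and 6.15, a fall of 1.89 ± 0.68 (adjusted p = 0.032). TIP1;6 did not pass without replicate 1 or 2 at 12 h or replicate 2 at 72 h (adjusted p up to 0.169, with a fall of 1.27 in the last case), and EXP4 did not without replicate 1 of either time (up to 0.0822).

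The 3 named genes tied to Al itself did not pass. SALI5-4A, first found as an Al-induced soybean transcript, read 14.59, 13.22 and 14.60 at 12 h and 13.68, 13.15 and 13.66 at 72 h (−0.64 ± 0.42, adjusted p = 0.239), with overlapping groups. STOP1, named after a regulator of Al tolerance genes in Arabidopsis, read 10.28, 10.43 and 10.46 and then 10.64, 10.32 and 10.35 (0.05 ± 0.11, adjusted p = 0.742). FRD3a, named after an Arabidopsis citrate exporter, differed by 0.02 ± 0.20 (adjusted p = 0.965). SALI5-4A passed when replicate 2 at 12 h was left out, with a fall of 1.10 and an adjusted p of 0.0453.

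Of the lists whose main site of expression is another organ, the nodulins were largely at background and the seed genes in part. Of 16 nodulins 12 were at background at both times and 2 rose. ENOD93, an early nodulin, went from 2.61, 2.90 and 2.92, with 2 of these arrays at background, to 6.64, 4.64 and 6.42, at least 8.10-fold higher (adjusted p = 0.000677, a fitted rise of 3.09 that was 3.72 without replicate 2 at 72 h), and ENOD40B rose by 1.71 ± 0.38. Of 40 seed storage and maturation genes 22 were at background, 9 rose and 2 fell. PM16 went from 5.72, 7.05 and 6.74 to background, at least 11.1-fold lower (adjusted p = 1.45e-05), and PM30 from 5.68, 6.80 and 6.25 to background, at least 9.28-fold lower (adjusted p = 0.0456, up to 0.112 without any 1 of the 6 arrays, and 0.159 with the offset of 32, where the fall was 1.58). The nodule markers NOD and N plus number (11 genes, 9 at background) summed to 1078 to 2046 at 12 h and 2037 to 2439 at 72 h, and the seed markers (29 genes, 15 at background) to 21410 to 23630 and 28080 to 32140. The markers sought for the root meristem had no named probe set, so the labelled tissue could not be checked against them. Of the remaining lists, 6 of 22 lipid genes rose and 7 fell (3 without replicate 1 at 72 h), FAD2-3, an oleate desaturase, rising by 1.36 ± 0.10, and 2 of 16 proteases and inhibitors rose and 1 fell. Of 10 glyoxalases 2 rose and 1 fell, with 1 rising without replicate 3 at 12 h or without replicate 2 or 3 at 72 h. Of 8 sieve element occlusion genes 2 rose and 2 fell, with 1 rising without replicate 2 at 12 h and 4 without replicate 3 at 12 h.

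**Figure D2:**
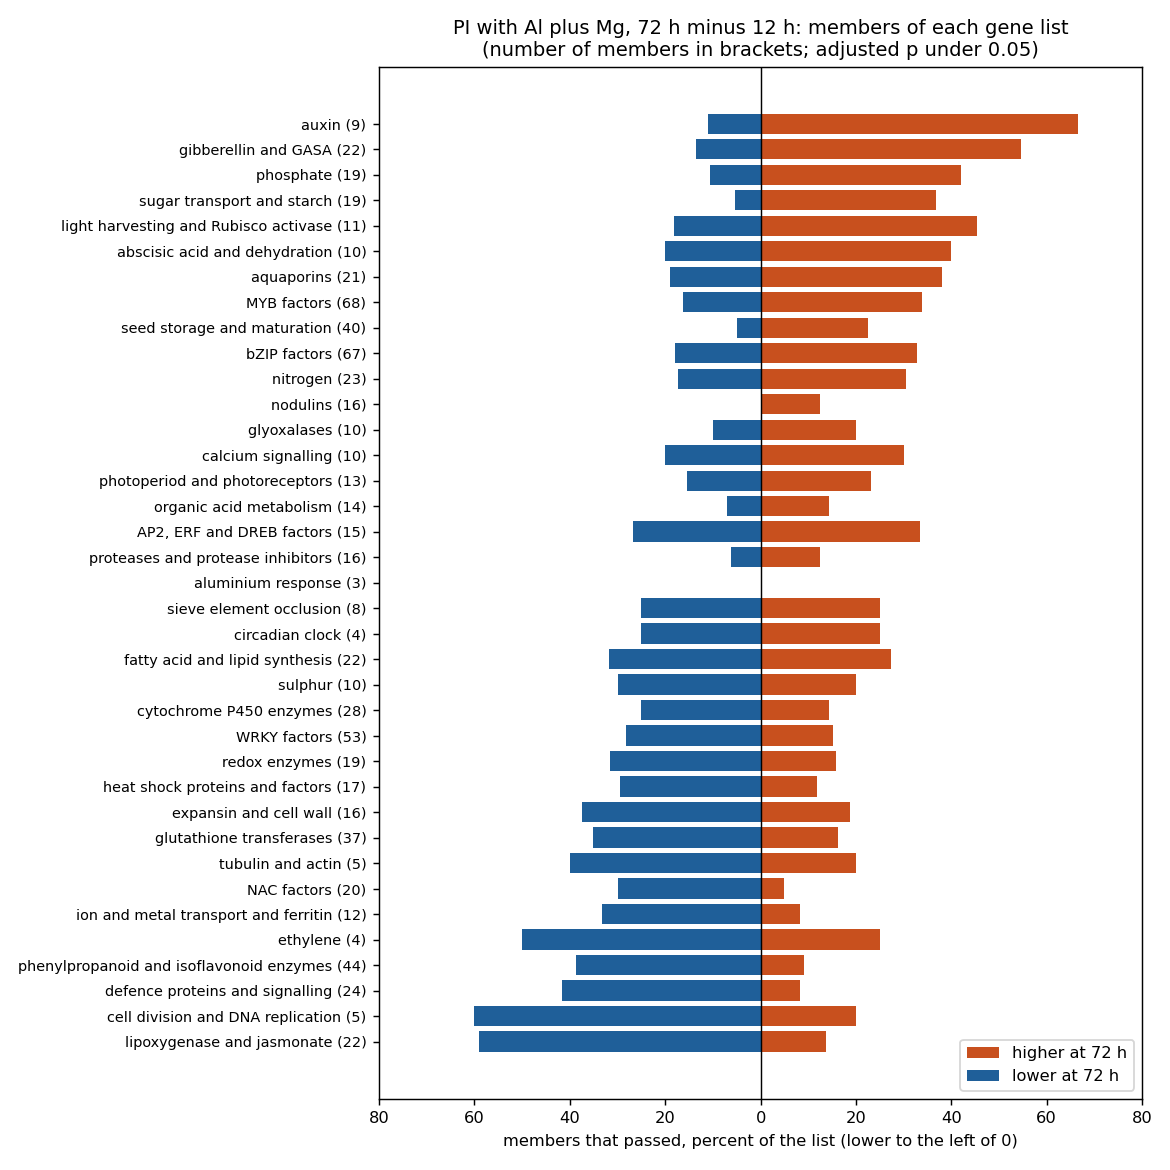
Members of each of the 37 gene lists that passed, as a percent of the list, higher at 72 h to the right and lower to the left, with the number of members in brackets. Lipoxygenase and jasmonate genes (13 of 22 lower) lie at the bottom, and auxin (6 of 9 higher) and gibberellin and GASA genes (12 of 22 higher) at the top.

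Genes next to the threshold show what the calls with the highest adjusted p look like, which are not those of the smallest difference. Just past it were MYB79 (0.37 ± 0.15, adjusted p = 0.0478), BFT (−1.06 ± 0.42 as fitted, adjusted p = 0.0489) and ACCC-2 (−0.65 ± 0.26, adjusted p = 0.049). Just short of it were PM28 (0.09 ± 0.04, adjusted p = 0.0502) and SBP2 (0.07 ± 0.03, adjusted p = 0.0507), both at background at both times, and FTRC (−0.42 ± 0.17, adjusted p = 0.0513).

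Whether these changes also occurred without Mg was asked by testing the time difference in PI with Al plus Mg against that with Al alone. Of 37593 probe sets 6521 passed (17.3%), 3502 with a difference that was higher with Mg (9.32%) and 3019 lower (8.03%). Of the probe sets that fell with Al plus Mg, 5340 also fell with Al alone (63.3% of this list and 60.4% of the 8844 that fell with Al alone), 2344 did not pass there and 746 rose. Of those that rose, 2810 also rose with Al alone (34.5%, and 47.6% of its 5900), 5090 did not pass there and 254 fell. Among the 372 falls of at least 8-fold, 141 were rises with Al alone, 93 falls and 138 did not pass, and 299 passed the test of the difference. Among the 260 rises of at least 8-fold, 203 also rose with Al alone and none fell, and 75 passed that test. Both 8-fold lists were chosen on the Al plus Mg arrays that the test of the difference also uses. The shares that passed it were thus in part set by that choice and cannot be read against the 17.3%.

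Several defence genes changed in opposite directions. PR-10 rose from a mean of 12.60 to 14.09 with Al alone while it sank to background with Al plus Mg, a difference between the changes of −11.29 or beyond (adjusted p = 1.13e-09). Both treatments stood close to each other at 12 h, where the mean with Al plus Mg was 12.83. PR1-1 rose by 3.02 with Al alone (difference of −10.88 or beyond, adjusted p = 7.92e-06), CYP71D8 by 2.15 (−9.58 or beyond, adjusted p = 2.03e-08) and WRKY30 by 5.91 (−9.56 ± 1.57, adjusted p = 0.000424). Without 1 array the fitted difference ranged from −12.42 to −10.32 for PR1-1 (without replicate 1 of Al alone and replicate 3 of Al plus Mg at 12 h, and −10.54 without replicate 2 of Al alone). The WRKY30 difference became −11.11 or −8.46 when replicate 1 or 2 with Al alone at 12 h was left out, and −10.18 or −8.81 when replicate 1 or 3 with Mg at that time was. Over all soybean probe sets 15.7% rose and 23.5% fell with Al alone. Of the 24 defence genes 12 rose and none fell with Al alone, against 2 and 10 with Al plus Mg, and 12 passed the test of the difference, all lower with Mg. WRKY genes counted 29 rising and 6 falling with Al alone, and 17 of 53 were lower and 4 higher in that test. NAC genes counted 10 rising and 1 falling of 20, with 10 lower in it, and glutathione transferases 16 rising and 3 falling of 37, with 14 lower. SFERH-2 and AOX1, lower with Mg, rose by 1.46 and 2.02 with Al alone (adjusted p of the difference 0.000539 and 0.000456). The glyceollin genes were not all alike, as G4DT had means of 12.52 and 12.33 with Al alone (adjusted p = 0.942), IFR fell by 1.29 there, and PT01 rose by 3.12, and each passed the test of the difference (adjusted p = 0.000561, 0.000105 and 2.84e-07).

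**Figure D3:**
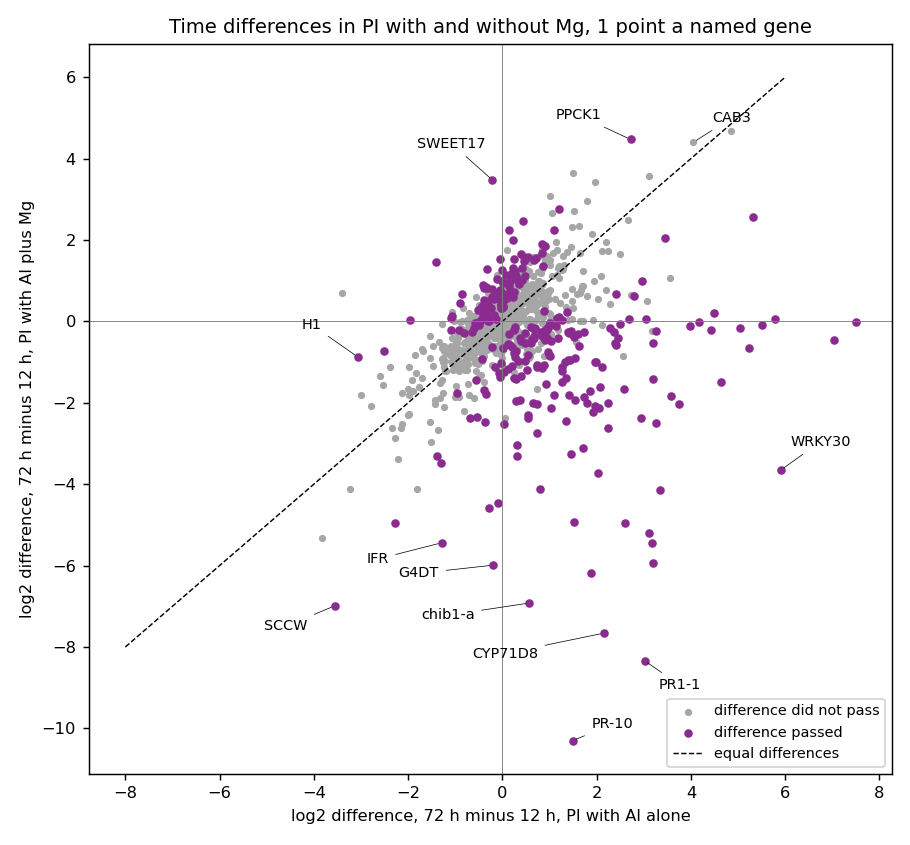
Log2 difference between 72 h and 12 h of 1125 named genes in PI with Al plus Mg (vertical) against PI with Al alone (horizontal), purple where the test of the difference passed and with a dashed line where both are equal. Of 275 purple genes 168 lie below the line, PR-10 lowest, and 107 above it.

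Other genes differed the opposite way, with a change that was higher with Mg. SWEET17 changed by −0.21 with Al alone against 3.47 with Mg (difference 3.67 ± 1.05, adjusted p = 0.0215), and this call was lost without replicate 2 of either PI with Al alone at 12 h or Al plus Mg at 72 h, where the highest adjusted p was 0.0555. GA2OX6 changed by 0.13 against 2.24 (adjusted p = 0.0383), BBI-2, a Bowman-Birk protease inhibitor, by −1.41 against 1.47 (adjusted p = 0.000472), and H1, a homeobox gene of the KNOTTED class also called Sbh1, by −3.06 against −0.88 (adjusted p = 0.00119). The call for GA2OX6 held under 12 of 20 alternatives and was lost, among others, without replicate 2 or 3 of PI with Al alone at either time (adjusted p up to 0.0955). Auxin genes had 4 of 9 members higher with Mg in this test and none lower, aquaporins 6 and 1 of 21. By contrast CAB3 rose by 4.05 with Al alone (adjusted p of the difference 0.703), LHY fell by 1.77 (adjusted p = 0.833), and jasmonate genes fell in 7 of 22 cases with Al alone. In that list 3 genes were lower with Mg in the test of the difference and 1 higher, and JAZ1, 1 of the 3, changed by 0.54 with Al alone (adjusted p of the difference 0.000215). LUXC rose by 0.90 with Al alone, less than the 1.84 with Mg (adjusted p = 0.00329).

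**Figure D4:**
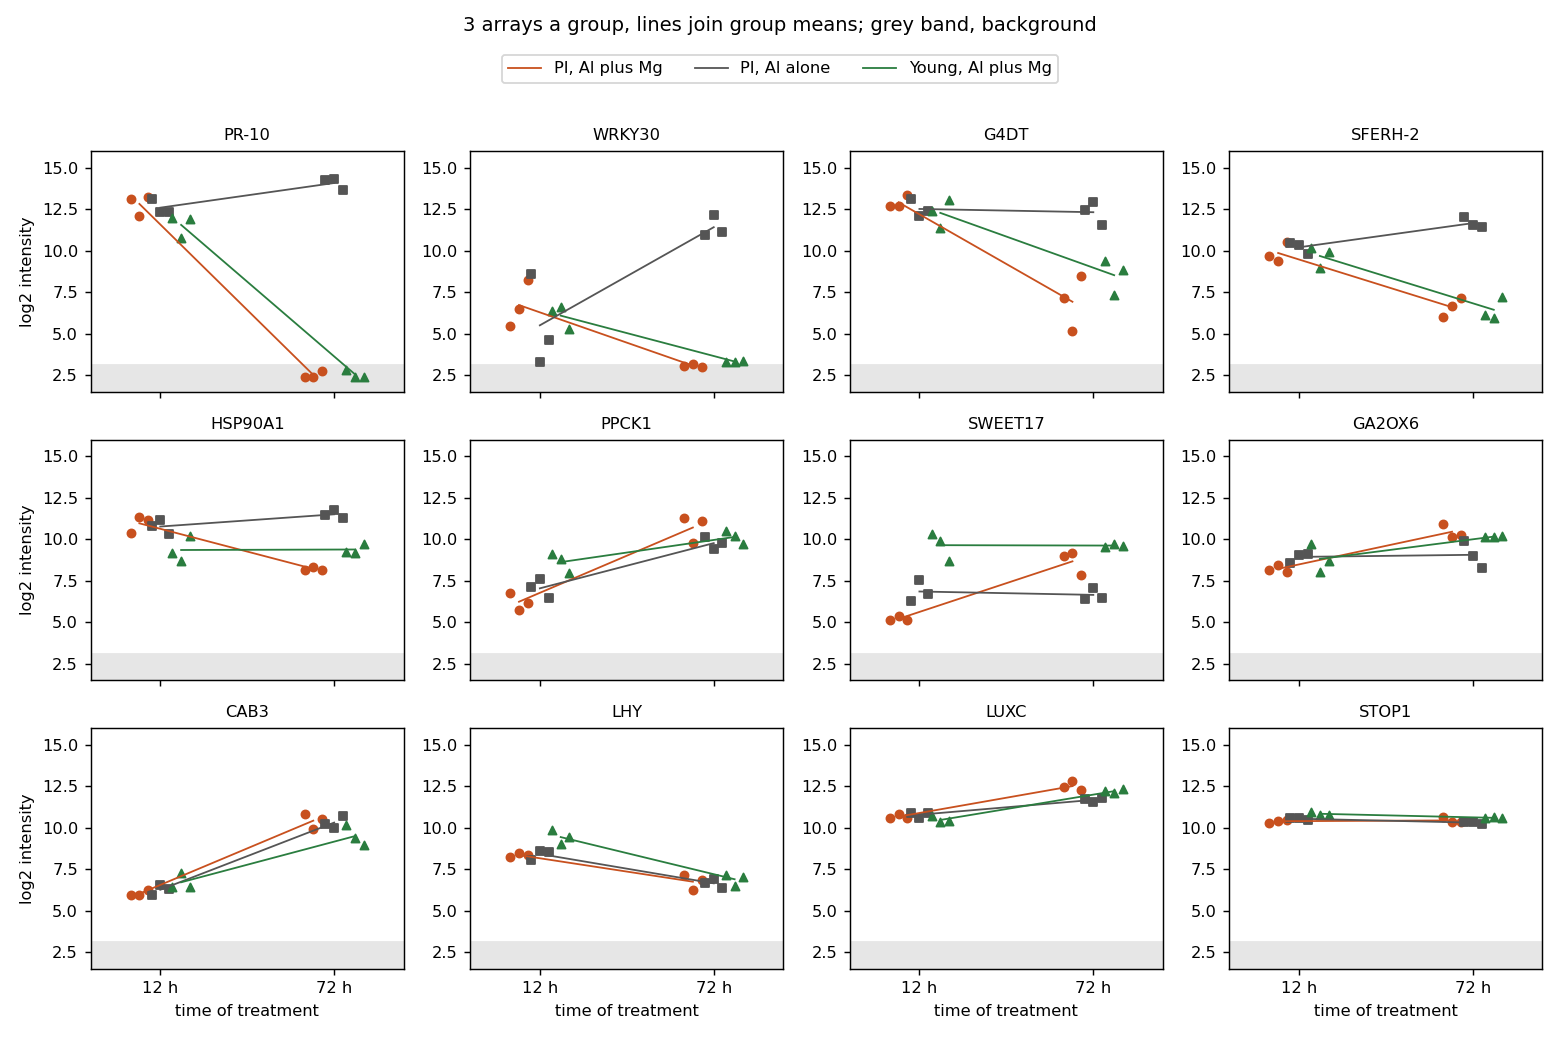
Log2 intensity of 12 genes at 12 h and 72 h in PI with Al plus Mg (orange circles), PI with Al alone (grey squares) and Young with Al plus Mg (green triangles), 3 arrays each, lines joining group means and the grey band background. PR-10 stays above 12 with Al alone at both times and lies in the band at 72 h in both groups with Mg, and CAB3 rises in all 3 groups.

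Whether the change was particular to the genotype was asked by testing it against the same change in Young. The test of the difference passed for 373 of 37593 probe sets (0.992%), 184 higher in PI (0.489%) and 189 lower (0.503%), while 6747 had an unadjusted p under 0.05. These counts rest on single arrays. Without replicate 3 of Young at 12 h they were 509 and 391, and without replicate 2 or 3 of PI at 72 h 367 and 302 or 304 and 234. They were 63 and 92 without replicate 1 and 72 and 91 without replicate 3 of PI at 12 h, and 69 and 92 without replicate 1 of PI at 72 h. Without replicate 1 or 2 of Young at 12 h they were 69 and 83 or 82 and 92, and without replicate 2 or 3 of Young at 72 h 54 and 101 or 85 and 108. With equal array medians the split was 248 higher and 163 lower. In Young 15.5% of probe sets rose and 15.6% fell. Young shared 4448 of the falls (52.8% of the PI list and 75.7% of Young's 5877) and 4180 of the rises (51.3% and 71.8% of 5824), and 15 probe sets passed in opposite directions. Of the 8-fold falls in PI, 298 of 372 also fell in Young and none rose, and of the 8-fold rises 173 of 260 rose and none fell.

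PR-10 went from a mean of 11.56 to 2.56 in Young, a difference of −8.73 or beyond (adjusted p of the genotype difference 0.273), with 2 of the 3 arrays at 72 h at background. PT01 and VSP27 were at background on all 3 arrays of Young at 72 h, and PR1-1 and CYP71D8 on 2 of them. IFR fell less in Young, by 2.64 against 5.44 (difference −2.8 ± 0.58, adjusted p = 0.0295), and so did chib1-a, by 4.12 against at least 6.53 (adjusted p = 0.0335). HSP90A1 stood at means of 9.35 and 9.38 in Young while it fell by 2.75 in PI (difference −2.78 ± 0.46, adjusted p = 0.00847). PPCK1 rose by 1.52 in Young against 4.47 in PI (difference 2.96 ± 0.59, adjusted p = 0.0256), from a 12 h mean of 8.63 in Young and 6.24 in PI. PIP2-10, a plasma membrane aquaporin, fell by 2.18 in Young and changed by −0.26 in PI (adjusted p = 0.0256). Where PI was at background on all 6 arrays, or on 5 of 6 for MYB60, MYB60 fell in Young from 5.18 to 2.56, LCL3 from 4.40 to 2.45, and SIK2, a receptor-like kinase gene, rose from 2.51 to 4.92 (adjusted p 0.00462, 0.0235 and 0.0261). Of these 8 differences, MYB60 kept its call under all 20 alternatives and HSP90A1 under 19, and the others under 11 to 13. All 6 of those others lost their call without replicate 2 of Young at 12 h or at 72 h, among other arrays, and their adjusted p reached 0.242 over all alternatives.

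**Figure D5:**
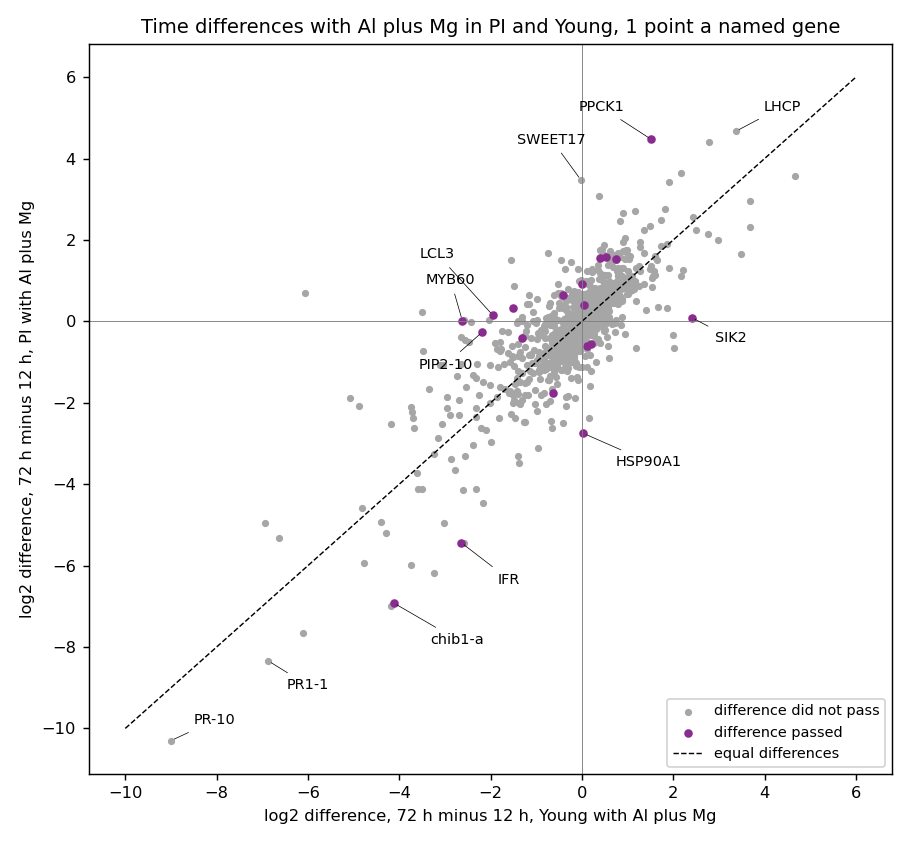
Log2 difference between 72 h and 12 h of 1125 named genes with Al plus Mg in PI (vertical) and in Young (horizontal), purple where the test of the genotype difference passed and with a dashed line where both are equal. The 19 purple genes include IFR, chib1-a, HSP90A1 and PPCK1, and PR-10 lies at the lower left in both genotypes.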

How the data were processed

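RNA of 24 soybean arrays was measured as intensity per probe set. The authors deposited these intensities on a linear scale, 1 value for each of 61170 probe sets and array, as seen in the file itself; how they were normalized is not given in the sources used. Column medians were between 6.421 and 7.151, and no column lacked a known sample. Groups came from the labels. Here values were floored at 1, put on a log2 scale and fitted with limma 3.58.1 in R 4.3.3 (lmFit and eBayes, a mean for each of the 8 groups, 16 residual degrees of freedom), with Benjamini-Hochberg adjustment over the 37593 soybean probe sets and a threshold of 0.05. The precision is limited by the 3 arrays in a group. The procedure was tested on simulated data.

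The background bound of an array was the 99th percentile of its pathogen probe sets. Where arrays of the lower group were at background, they were set to their bound and the size is given as at least that. Probe sets were named from the platform's annotation and RefSeq symbols (8677 with 1 gene, 370 with several, which were not named, and 28546 with none). The probe set of highest mean stood for a gene.

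Genes were named by rule: the 12 largest non-overlapping rises and falls, up to 3 passing members of each list, the clock list, the 4 largest of each sign in each test of a difference, and the 3 on either side of the threshold. 4CL, 4CL1, 4CL2, 4CL3, 4CL4, AOC4, C4H, CHS1, CYP74A1, CYP81E11, EDS1-2, HIDH, IFR1, IFR2, IFS1, IFS2, LOX7, LOX9, NDR1b, PAL2.1, PETC and PGIP4 were added after their values were seen. The comparison, members and lists were chosen with earlier results of these data known. Lists were written out by symbol after the files were seen and before this fit, in place of symbol patterns; no cytokinin list was used, and glyoxalases and sieve element genes were added. Promoter motifs were not analysed here. Python 3.11.15 with pandas 2.3.3, numpy 2.4.6 and matplotlib 3.10.9 served for summaries and plots. Alternatives were a signal filter, all probe sets, quantile normalization, equal medians, an offset of 32, trended variance, the compared arrays alone, a replicate block, a 2-fold limit and leaving out each array. Calls above background were counted as an alternative chosen after seeing the data.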

Additional observations from a re-analysis of the deposited data

Results flagged for a closer look

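Time differences that differed between treatments or genotypes, by the limma test of the difference, were singled out. Between Al plus Mg and Al alone in PI, 3502 probe sets changed more upward and 3019 more downward with Mg. Among named genes the fitted difference was −11.79 for PR-10, −11.36 for PR1-1, −9.82 for CYP71D8 and −9.56 for WRKY30. It was 3.67 for SWEET17, 2.89 for BBI-2, 2.18 for H1 and 2.11 for GA2OX6. The first 3 sizes include arrays at background.

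Between PI and Young with Al plus Mg, 184 probe sets changed more upward and 189 more downward in PI. The fitted difference was 2.96 for PPCK1, 1.92 for PIP2-10, −2.78 for HSP90A1, −2.8 for IFR and −2.81 for chib1-a. It was 2.64 for MYB60, 2.1 for LCL3 and −2.33 for SIK2, for which PI lay at background on at least 5 of 6 arrays and no size is given.

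Of 23350 probe sets for Phytophthora sojae and Heterodera glycines, which the comparisons do not use, 6723 passed as higher at 72 h and 52 as lower. Their median difference was 0.011, against 0.014 over the soybean probe sets in the same fit.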

How the results depend on the processing

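The counts of 8154 higher and 8430 lower probe sets were 6897 to 7905 and 6990 to 7920 when 1 array was left out. With all probe sets tested 15847 were higher, pathogen probe sets included, and a 2-fold limit left 2667 and 3154. With equal array medians 10138 were higher and 7322 lower, and with a replicate block 7889 and 8201. The difference between genotypes (184 and 189) moved most: 54 to 509 higher and 83 to 391 lower without 1 array, 119 higher with the compared arrays alone and 91 higher at 2-fold. The cause was not tested, except that the last settings use fewer arrays or add a limit. With the replicate block it was 141 and 153. The difference between treatments (3502 and 3019) was 2544 to 3549 and 2512 to 3137 without 1 array, 882 higher at 2-fold, and 3233 and 2909 with the block. Replicate numbers did not pair the arrays: the correlations of the residuals of same-numbered arrays were −0.227, 0.089 and 0.051, and the block changed no other count by over 1.5 times. Of 116 named genes by rule that passed, 90 kept their call under all 14 alternatives, 26 lost it under at least 1, and 0 reversed. Genes that did not pass changed sign without 1 array: FRD3a ranged from −0.12 to 0.22 (with −0.06 and −0.11 in between), STOP1 from −0.05 to 0.11 (with −0.00), LCL3 from −0.01 to 0.24 and MYB60 from −0.03 to 0.11 (with −0.00), and MYB60 was −0.05 with quantile normalization. The offset of 32, which by construction shrinks differences of low signals, moved 51 gene sizes by over 1.5 times, and leaving out 1 array moved 27. Of 518 list counts 31 moved by over 1.5 times. Over probe sets of 57 genes with several, 3 genes (CAB3, GRP and TIP1;6) had probe sets that passed in opposite directions. Signals near background limit sizes, not only calls.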
